A study of Mus musculus with 9 samples.

Results

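Sorted stromal cells of mouse bone marrow were set against total marrow. The stromal group was 3 arrays of cells that lacked CD45 and lineage antigens and carried CD54 and BP1, and the control group was 2 arrays of total bone marrow cells; these are 5 of the 9 arrays of the series, chosen by their titles. Both groups came from wild-type C57Bl/6J young adults, which for the sorted cells meant an age of 6 to 12 weeks, and the labels name no treatment. A sorted sample held 1800 to 10000 cells with an unmeasured amount of RNA, whereas total marrow entered amplification as 10 ng of RNA, so the kind of cell and the amount of input cannot be told apart here. The same whole-transcriptome amplification kit, NuGEN Ovation Pico, served both groups before hybridisation to Affymetrix Mouse Gene ST 1.0 arrays. The values are the authors' log2 signals, on which a difference of 1 is a 2-fold difference. Whether replicate arrays came from different mice is not given in the labels, so p-values reflect the scatter of arrays within groups, and that scatter may be technical. The 5 arrays had medians of 4.51 to 4.56. The remaining 4 arrays were sorted cells of IL7-Cre/Rosa-eYFP reporter mice, 3 YFP-positive and 1 YFP-negative, and entered the fit only for its estimate of the spread; the single YFP-negative array, with a median of 3.46, stood apart and has no replicate, so it adds nothing to that estimate. Across genes the stromal arrays correlated at 0.981 to 0.987 with each other, the total marrow arrays at 0.993, and arrays of different groups at 0.805 to 0.817.

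Reticular stroma of the marrow is a network of mesenchymal cells that lies along the sinusoids. It supplies haematopoietic stem cells and B cell precursors with anchoring and survival signals, and it includes progenitors of bone and fat. Total marrow is dominated by blood-forming cells and their progeny, among which granulocytes and red cell precursors are abundant and stroma is rare. BP1 is the glutamyl aminopeptidase encoded by Enpep, CD54 is the adhesion molecule encoded by Icam1, and CD45 is the phosphatase encoded by Ptprc that marks leucocytes.

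The genes behind the sort followed the gate. Enpep read 7.41, 7.18 and 7.49 in stroma and 4.11 and 3.997 in total marrow. Icam1 read 6.61, 6.31 and 6.31 in stroma and 5.38 and 5.31 in total marrow. Ptprc read 3.70, 3.64 and 3.60 in stroma and 9.69 and 9.75 in total marrow. In all 3 genes the groups did not overlap, and the gap was narrowest for Icam1, at 1.06 ± 0.19 (SE; n = 3 and 2; limma, adjusted p = 0.00526). Lack of overlap alone is common with so few arrays. It held for 10680 of all 19938 genes tested, and is to be read against that share here and below. Igfbp5, which binds insulin-like growth factors, read 12.21, 12.20 and 12.36 in stroma, against 3.40 and 4.29 in total marrow. Mmp13, a collagenase, read 11.06, 11.33 and 11.06 against 3.56 and 3.48. Both were high in every stromal array and near the low end of the scale in both controls. The reticular markers Lepr, Cxcl12, Kitl and Il7 were likewise higher, by 7.63, 6.96, 7.29 and 4.52 log2 units. The labelled cell type therefore carried its defining transcripts.

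Of 21789 rows with 1 gene, 24.3% were called, which means an adjusted p under 0.05 in limma; 10.4% were called higher in stroma and 13.9% lower. Keeping 1 row per gene, 2163 genes were higher and 2743 lower of 19938, and changes over all genes had a median of 0.0058. Leaving out total marrow replicate 1 reduced the rows called from 5291 to 3398, and leaving out replicate 2 reduced them to 3617. A low level of 4.55, the median of all values in the 5 arrays, was used to mark dim genes. It is a stated level and not a measured detection limit, and changes are given as fitted on either side of it. Of the called genes, 881 of those higher in stroma had only total marrow below that level, and 1075 of those lower in stroma had only stroma below it. Both groups were above the level for 1166 genes called higher and 1444 called lower. In a bulk sample fewer cells of a type and less RNA per cell cannot be told apart. The olfactory and vomeronasal receptors, which serve smell, are a family that few cells outside sensory tissue express, and most of them read near the low end of these arrays. Of 1189 measured, 1171 were dim in both groups, their median change was 0.02, and 1 was called, Olfr597, lower by 0.68 and itself dim in both groups; that call was lost without either total marrow array.

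**Figure D1:**
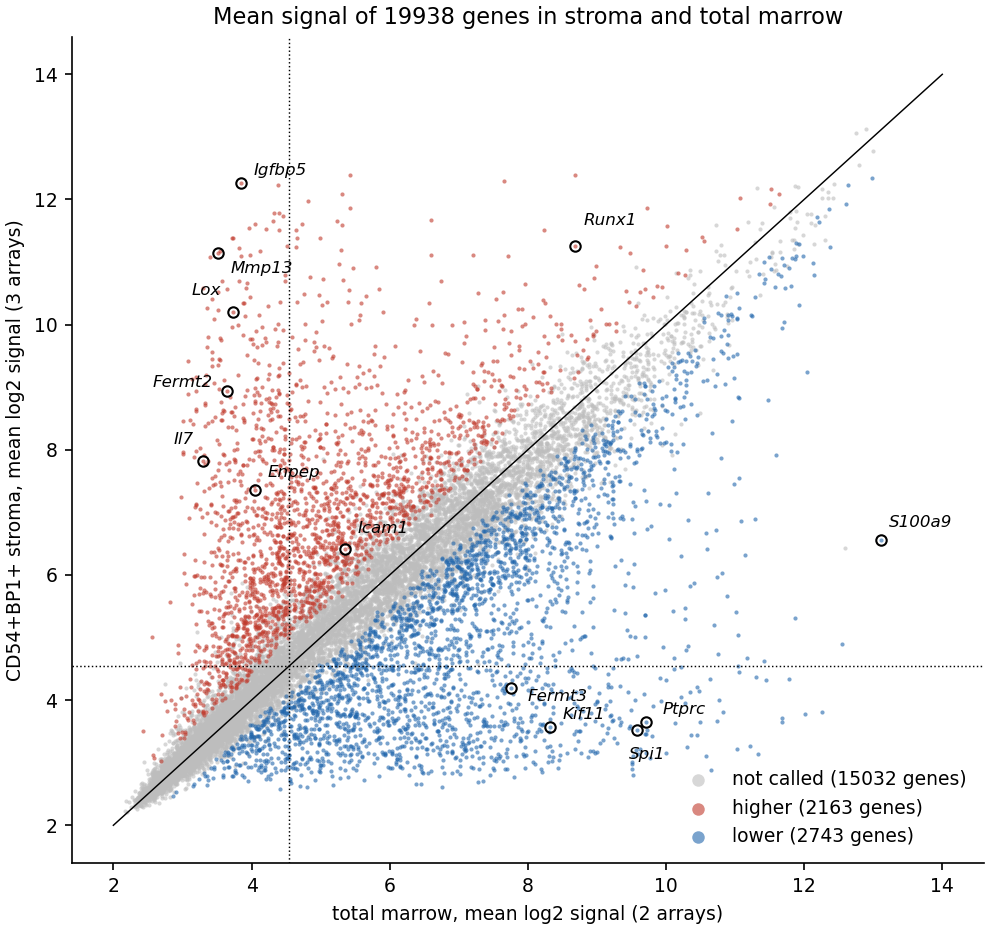
Mean log2 signal of each gene in total marrow (horizontal axis, 2 arrays) and in CD54+BP1+ stroma (vertical axis, 3 arrays), with genes called higher in red, called lower in blue and not called in grey; the solid line marks equal signal and dotted lines mark the low level of 4.55. The 2163 genes called higher and 2743 called lower spread away from the line on both sides, and Igfbp5, Mmp13 and Il7 lie above it with total marrow below the dotted line, while Ptprc and Spi1 lie under it with stroma below the dotted line.

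Changes reached far on both sides. At least 4 log2 units separated the groups for 254 genes called higher and 273 called lower, and at least 7 units for 22 and 16. Among the largest on the higher side were Cdh11, a mesenchymal cadherin (7.31 ± 0.13, SE), Esm1, a secreted proteoglycan (7.28 ± 0.25), Plpp3, a phosphatase of bioactive lipids (7.25 ± 0.28), and Kng1, the kininogen gene (7.12 ± 0.20). Gas6, the ligand of TAM receptor kinases (7.11 ± 0.14), Epas1, a hypoxia-inducible transcription factor (7.05 ± 0.10), and the neutral endopeptidase gene Mme (6.99 ± 0.12) stood beside them. Each of these 7 had a total marrow mean of 3.52 to 4.45, below the low level. Among the largest on the lower side were the chemokine genes Ccl3 (−7.05 ± 0.16) and Cxcl2 (−6.69 ± 0.20) and the MHC class II gene H2-Aa (−6.93 ± 0.18). The inhibitory receptor gene Lilr4b (−6.72 ± 0.19) belonged to the same end. Their stromal means were 2.80 to 3.44.

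The lists below cover secretion, cell structure, signalling, transcription, metabolism, proliferation, the machinery of RNA and protein, degradation, leucocyte functions and markers of other cells. Their called members are counts from the fit over all rows, to be read against 10.4% higher and 13.9% lower.

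**Figure D2:**
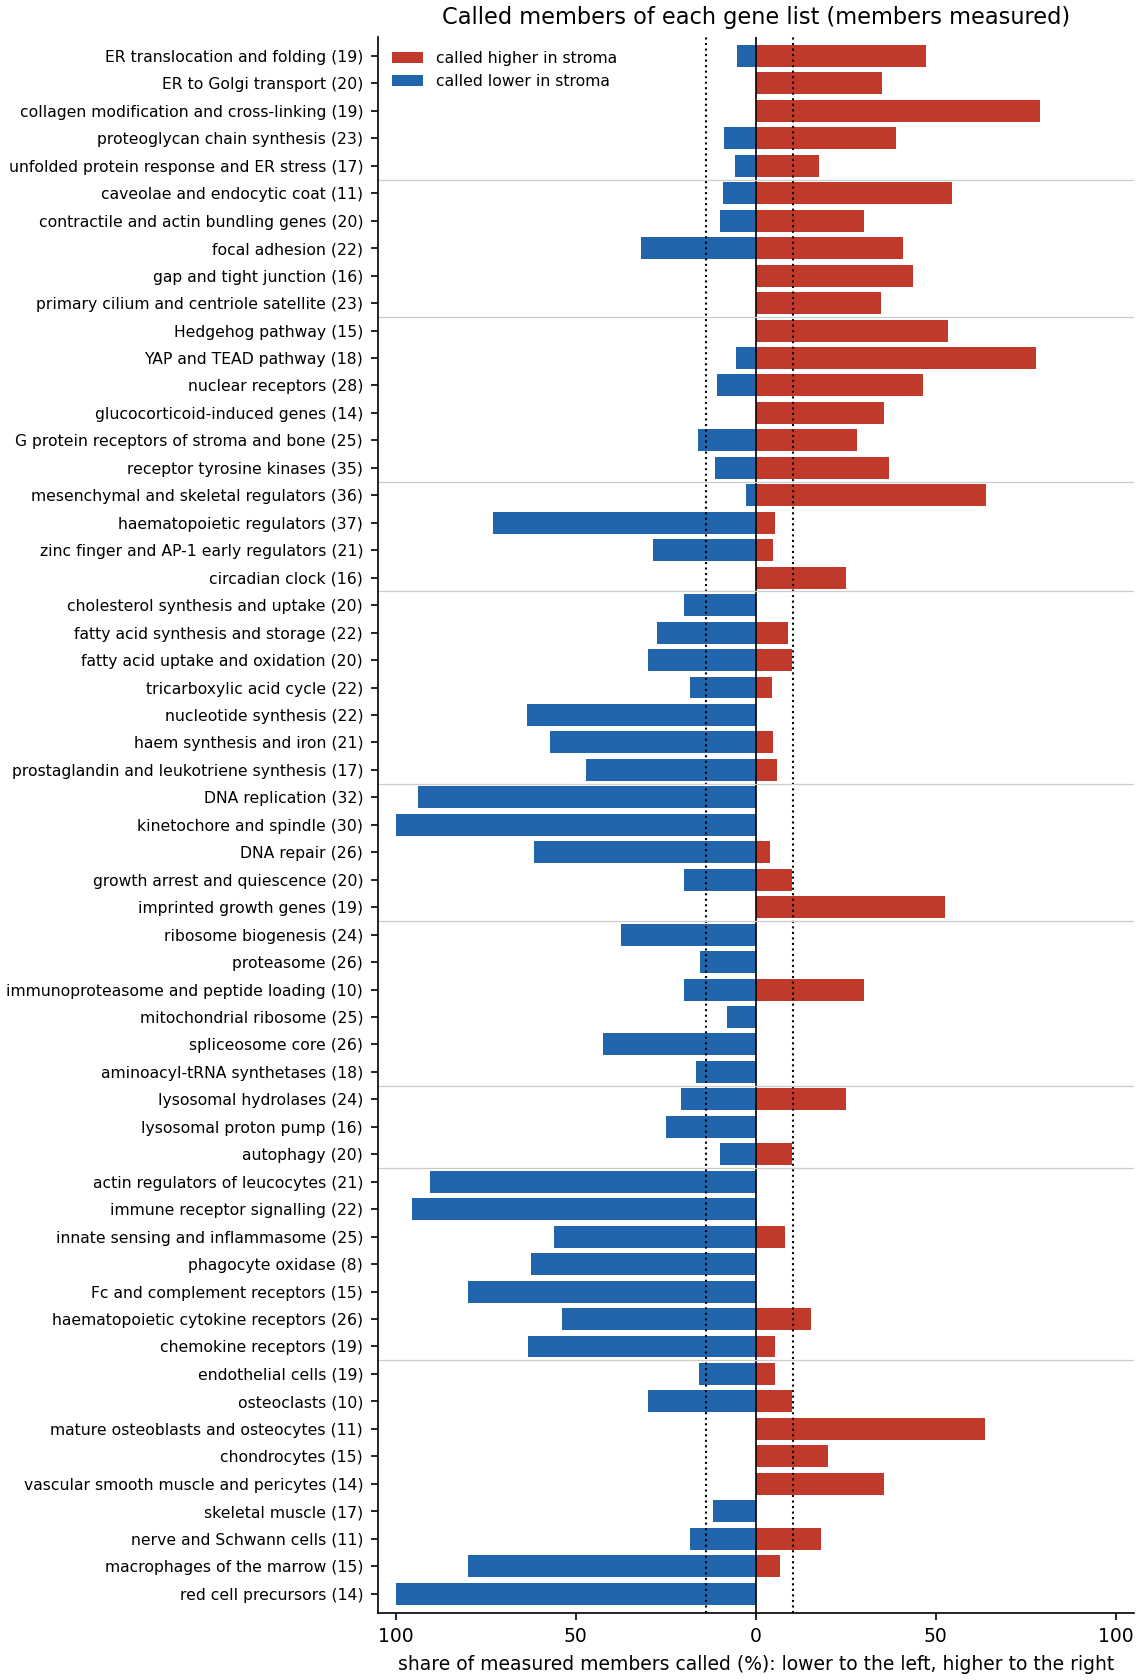
Share of measured members called higher (red, to the right) or lower (blue, to the left) in stroma for each gene list, in percent, with the number of measured members in parentheses; dotted lines mark the shares over all rows, 10.4% higher and 13.9% lower. Collagen modification reached 78.9% higher and the YAP and TEAD pathway 77.8% higher, while kinetochore and spindle genes and red cell precursor genes were called lower in all measured members.

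The secretory pathway was higher in stroma at the steps that handle collagen. Collagen chains are hydroxylated and folded in the endoplasmic reticulum (ER), leave it in enlarged coated carriers and are cross-linked outside the cell. Of 19 measured genes for collagen modification and cross-linking, 15 were called higher and 0 lower, and the median change was 3.03. Lox, a lysyl oxidase that cross-links collagen, read 10.14, 10.13 and 10.33 in stroma and 3.98 and 3.50 in total marrow. Its relative Loxl1 read 10.80, 10.73 and 10.65 against 4.54 and 5.52. Stroma was high and the groups were far apart in both genes, with changes of 6.46 ± 0.17 and 5.70 ± 0.26 (SE, n = 3 and 2, adjusted p = 1.91e-07 and 1.97e-06). The hydroxylases P3h2 and Plod2 rose by 5.38 ± 0.14 and 4.78 ± 0.53, and the collagen chaperone Serpinh1 by 4.75. Transport from ER to Golgi had 7 of 20 members called higher and 0 lower, with a median of 0.48. The higher count was 3 without total marrow replicate 1 or 2, 12 and 13 after quantile and cyclic loess normalization, and 11 with the 5 arrays alone. The members that rose most were Kdelr3, a retrieval receptor (3.39 ± 0.78), and Sec24d, a coat subunit (3.05 ± 0.33). Mia3, which loads collagen into carriers, and Sec23a rose by 1.26 and 1.34.

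Of 19 measured genes for translocation and folding in the ER, 9 were called higher and 1 lower, with a median of 0.68. The disulphide isomerase Pdia4 read 8.79, 9.25 and 8.999 in stroma against 7.47 and 7.48, a rise of 1.54 ± 0.19 (adjusted p = 0.000666). The chaperone Hspa5 read 10.71, 10.98 and 10.93 against 9.56 and 9.76, a rise of 1.21 ± 0.16. Both separated the groups with both means far above the low level. Ero1a, the oxidase that recharges disulphide isomerases, went the other way and fell by 1.74 ± 0.33. The unfolded protein response, the stress programme that raises such chaperones, had 3 of 17 members called higher and 1 lower and a median of 0.02. Its called members were Creb3l1 and Creb3l2, membrane-bound transcription factors of secretory cells (2.78 ± 0.42 and 1.83), Sel1l of ER-associated degradation (1.29) and, lower, the asparagine synthetase gene Asns (−3.06 ± 0.27). Atf4, Ddit3 and Xbp1 were not called, at −0.06, 0.19 and 0.83. Proteoglycan chain synthesis had 9 of 23 higher and 2 lower (4 higher without total marrow replicate 2). Sulf1, which trims sulphate from heparan chains outside the cell, rose by 5.01 ± 0.36, while its relative Sulf2 fell by 1.28.

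Cell structure separated the compartments by gene relatives as much as by whole systems. Kindlins and parvins connect integrins to actin. Fermt2, the kindlin of mesenchymal and epithelial cells, read 8.79, 9.06 and 8.95 in stroma and 3.67 and 3.62 in total marrow. Fermt3, the kindlin of blood cells, read 4.07, 4.54 and 3.95 in stroma and 7.84 and 7.68 in total marrow. Each was high in every array of its own group and dim in the other. The changes were 5.28 ± 0.17 and −3.57 ± 0.19 (SE, n = 3 and 2, adjusted p = 3.82e-07 and 4.79e-06). Among the parvins, Parva rose by 4.51 ± 0.24, whereas Parvb and Parvg fell by 2.95 ± 0.24 and 4.63 ± 0.17. Of 22 focal adhesion genes, 9 were called higher and 7 lower, and the list's median was 0.41. Tns2 and Lpp rose by 4.07 and 3.33. The kinase Ptk2b, paxillin (Pxn), zyxin (Zyx) and talin 1 (Tln1) fell by 2.79, 1.98, 1.74 and 0.76, and talin 2 (Tln2) rose by 2.90. The shared linkers Ilk, Vcl and Lims1 were not called, at 0.32, 0.50 and −0.23.

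Contacts, membrane domains and the cilium leaned to the higher side. Gap and tight junction genes had 7 of 16 called higher and 0 lower. Gja1, the connexin 43 gene of stromal and bone cells, read 11.79, 11.65 and 12.13 in stroma against 5.47 and 5.38, a rise of 6.43 ± 0.18. Gjc1 and Tjp1 rose by 3.43 and 2.87, and 7 members were dim in both groups. Of 11 caveola genes, 6 were higher, led by Ehd2 (2.92 ± 0.53), and 1 lower, the flotillin gene Flot1 (−0.997), whose call was lost without stromal replicate 1 or 3 or either total marrow array. Cav1 itself was dim in both groups and not called, at 0.47. Contractile and actin-bundling genes had 6 of 20 higher and 2 lower. Palld, Cald1 and Tpm1, which bundle or coat actin filaments, rose by 4.40 ± 0.20, 4.32 ± 0.29 and 3.95 ± 0.16, while the myosin heavy chains Myh9 and Myh10 fell by 0.82 and 0.90 (1 lower without stromal replicate 1 or either total marrow array). The primary cilium, an antenna of resting cells, had 8 of 23 genes higher and 0 lower. This count was 3 without total marrow replicate 1, 2 without replicate 2 and 5 after quantile normalization. Ift43 of the transport particle rose by 3.32 ± 0.31, and the others called rose by 0.85 to 1.48.

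The Hedgehog pathway signals through that cilium. Its reception and transcription genes were higher, 8 of 15 with 0 lower. The transducer Smo read 7.47, 7.57 and 7.86 in stroma against 4.45 and 4.73, a rise of 3.04 ± 0.25 (adjusted p = 5.68e-05). The transcription factors Gli3 and Gli2 rose by 3.20 ± 0.32 and 1.63 ± 0.19. Of the receptors and co-receptors, Ptch1, Boc and Gas1 rose by 2.08 ± 0.17, 2.09 ± 0.16 and 2.51 ± 0.23. The ligands Shh, Ihh and Dhh were not called, at −0.05, −0.01 and 0.11, and the target gene Gli1 was dim in both groups, at 0.05.

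The YAP and TEAD pathway couples tension and cell contact to transcription. Of its 18 measured members 14 were called higher and 1 lower, with a median of 1.61. Ccn1, a matricellular target, read 11.50, 11.29 and 10.56 in stroma and 3.68 and 4.28 in total marrow. Ccn2 read 11.11, 10.69 and 10.56 against 4.49 and 4.48. Stromal replicate 3 was the lowest stromal array in both genes and still lay far above both controls. The changes were 7.14 ± 0.41 and 6.30 ± 0.28. Of the DNA-binding partners, Tead1, Tead3 and Tead2 rose by 4.07 ± 0.20, 2.57 and 1.49, and Tead4 was not called, at 0.19. The coactivators Wwtr1 and Yap1 rose by 2.41 ± 0.30 and 1.23 ± 0.25. The inhibitors Lats1, Lats2, Amotl1 and Amotl2 were higher as well, by 0.82, 0.94, 2.36 and 3.43. The kinase gene Nuak2 fell by 1.31 ± 0.28, a call lost without total marrow replicate 2, and the target Ankrd1 was dim in both groups.

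Receptors divided along cell type. Of 35 receptor tyrosine kinases, 13 were higher, 4 lower and 13 dim in both groups. Pdgfrb, a receptor of mesenchymal cells, read 10.43, 10.28 and 10.61 in stroma against 3.76 and 4.19. Fgfr2, Pdgfra and Egfr rose by 6.24 ± 0.15, 5.53 ± 0.20 and 4.80 ± 0.22, and the collagen receptors Ddr2 and Ddr1 by 3.65 and 2.97. Csf1r, the receptor of macrophages, fell by 3.86 ± 0.13, Flt3 by 1.54 and Met by 1.62, while Kit was not called, at −0.49. Among 25 G protein-coupled receptors and their partners, 7 were higher and 4 lower (2 lower without either total marrow array). S1pr3, a receptor for sphingosine 1-phosphate, read 10.38, 10.37 and 10.36 in stroma against 4.67 and 4.17, a rise of 5.95 ± 0.22. Pth1r, the parathyroid hormone receptor, rose by 4.06 ± 0.20. The accessory protein Ramp2 rose by 3.38 and its relative Ramp1 fell by 3.83 ± 0.20.

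Nuclear receptors, transcription factors that bind small lipophilic ligands, had 13 of 28 called higher and 3 lower (8 higher without total marrow replicate 2). Pparg, the regulator of fat cells, read 9.34, 9.40 and 9.28 in stroma against 5.91 and 5.81, a rise of 3.48 ± 0.15. The oestrogen receptor gene Esr1, the thyroid hormone receptor gene Thra and the vitamin D receptor gene Vdr rose by 2.21 ± 0.28, 2.12 and 2.08 ± 0.54. All 3 lower members belonged to the Nr4a family, whose genes respond fast to stimuli. Nr4a1 read 5.92, 6.21 and 5.27 in stroma against 9.49 and 9.56, a fall of 3.72 ± 0.59, and Nr4a2 and Nr4a3 fell by 1.01 and 0.59. Nr1d1, a repressor of the circadian clock, varied between stromal arrays. It read 9.08, 10.17 and 7.76 in stroma, against 5.12 and 4.99 in total marrow. Stromal replicate 2 was the highest and replicate 3 the lowest, and all 3 lay above both controls. Of the other clock genes, Clock, Tef and Nfil3 rose by 1.77 ± 0.20, 0.98 and 0.59, and Per1, Arntl and Dbp were not called, at 0.15, 0.47 and 0.41.

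Genes known to respond to glucocorticoids did not move as a block. Of 14 measured, 5 were higher and 0 lower, with a median of 0.16. Errfi1, a brake on the epidermal growth factor receptor, read 10.19, 10.33 and 10.42 in stroma against 4.90 and 5.14. Pdk4 and Angptl4, which shift fuel use to lipids, rose by 5.03 ± 0.32 and 4.70 ± 0.41, and Klf9 by 2.24 ± 0.25. The classic targets Fkbp5 and Tsc22d3 were not called, at −0.62 and 0.10, nor was the receptor gene Nr3c1, at 0.20.

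Transcription factors of mesenchyme and of blood lay on opposite sides. Of 36 mesenchymal and skeletal regulators, 23 were called higher and 1 lower, with a median of 1.34. Snai2, a repressor of epithelial genes, read 11.26, 11.25 and 11.28 in stroma and 4.41 and 4.62 in total marrow. Ebf3, Foxc1 and Prrx1, regulators of reticular and limb mesenchyme, rose by 6.45 ± 0.20, 6.43 ± 0.20 and 5.86 ± 0.20. The bone regulators Dlx5 and Sp7 rose by 5.59 ± 0.26 and 3.74 ± 0.14. Sox9, a regulator of cartilage, rose by 1.45 ± 0.23, and its partner Sox6 fell by 0.39 with both groups dim, a call lost whichever of the 5 arrays was left out. Of 37 haematopoietic regulators, 27 were called lower and 2 higher, with a median of −2.08. Spi1, which encodes PU.1, read 3.55, 3.42 and 3.59 in stroma and 9.67 and 9.50 in total marrow, a fall of 6.06 ± 0.12. Spib, Myb and Nfe2 fell by 5.90 ± 0.12, 5.33 ± 0.28 and 5.21 ± 0.28.

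The 2 haematopoietic regulators called higher were Runx1 and Cebpa. Runx1, known for its role in the origin of blood stem cells, read 11.23, 11.42 and 11.13 in stroma against 8.62 and 8.75. Cebpa, a factor of granulocytes and of fat cells, read 9.71, 9.72 and 9.52 against 7.63 and 7.39. Every stromal array was above both controls, and both groups were above the low level. The changes were 2.57 ± 0.14 and 2.14 ± 0.31 (adjusted p = 6.57e-06 and 0.00143). Both kept their call with each array of either group left out in turn. Of 21 early regulators of the AP-1, Egr and Klf type, 6 were lower and 1 higher. Klf4, Atf3, Egr2 and Fosl1 fell by 3.15 ± 0.29, 2.95, 2.94 and 2.76, Maf rose by 3.10 ± 0.12, and Fos and Egr1 were not called, at −0.35 and 0.18.

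Several gene families had members on either side. Among 20 receptor-type phosphatases, 6 were higher and 4 lower. Ptprd read 9.57, 9.80 and 9.97 in stroma against 3.77 and 4.19. Ptpre read 3.43, 3.31 and 3.42 in stroma against 7.13 and 7.40. Ptprm and Ptprg were called on the side of Ptprd, with changes of 3.88 ± 0.12 and 3.32 ± 0.55, and Ptpre fell by 3.88 ± 0.13. Among tetraspanins, membrane organisers, 7 of 24 were higher and 5 lower, with Tspan12 (4.21 ± 0.39), Tspan6 (3.52 ± 0.41) and Tspan4 (3.21) against Tspan13 (−4.98 ± 0.68) and Tspan5 (−2.63).

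Lysosomal proteases followed suit, though lysosomes are in every cell. Ctsk, the collagen-degrading cathepsin, read 8.54, 8.87 and 8.83 in stroma against 4.19 and 4.84. Ctss, the cathepsin of antigen-presenting cells, read 3.48, 3.38 and 3.50 in stroma against 9.70 and 9.68. Ctsk was high in stroma and Ctss in total marrow without overlap, with changes of 4.23 ± 0.22 and −6.24 ± 0.14. Ctsl and the glucosidase Gaa rose by 2.40 ± 0.15 and 2.79 ± 0.12, and Ctsg fell by 6.77 ± 0.37. Of 24 lysosomal hydrolases 6 were higher and 5 lower, with a median of 0.11; 3 were higher without total marrow replicate 2, and 3 lower with any 1 of the 5 arrays left out or after quantile normalization; the 5 arrays alone gave 8 lower. The proton pump that acidifies the lysosome had 0 of 16 higher and 4 lower (2 without total marrow replicate 1), and autophagy had 2 of 20 in each direction (1 higher without total marrow replicate 2, and 1 lower without either total marrow array or stromal replicate 1 or 3, and 5 lower with the 5 arrays alone).

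**Figure D3:**
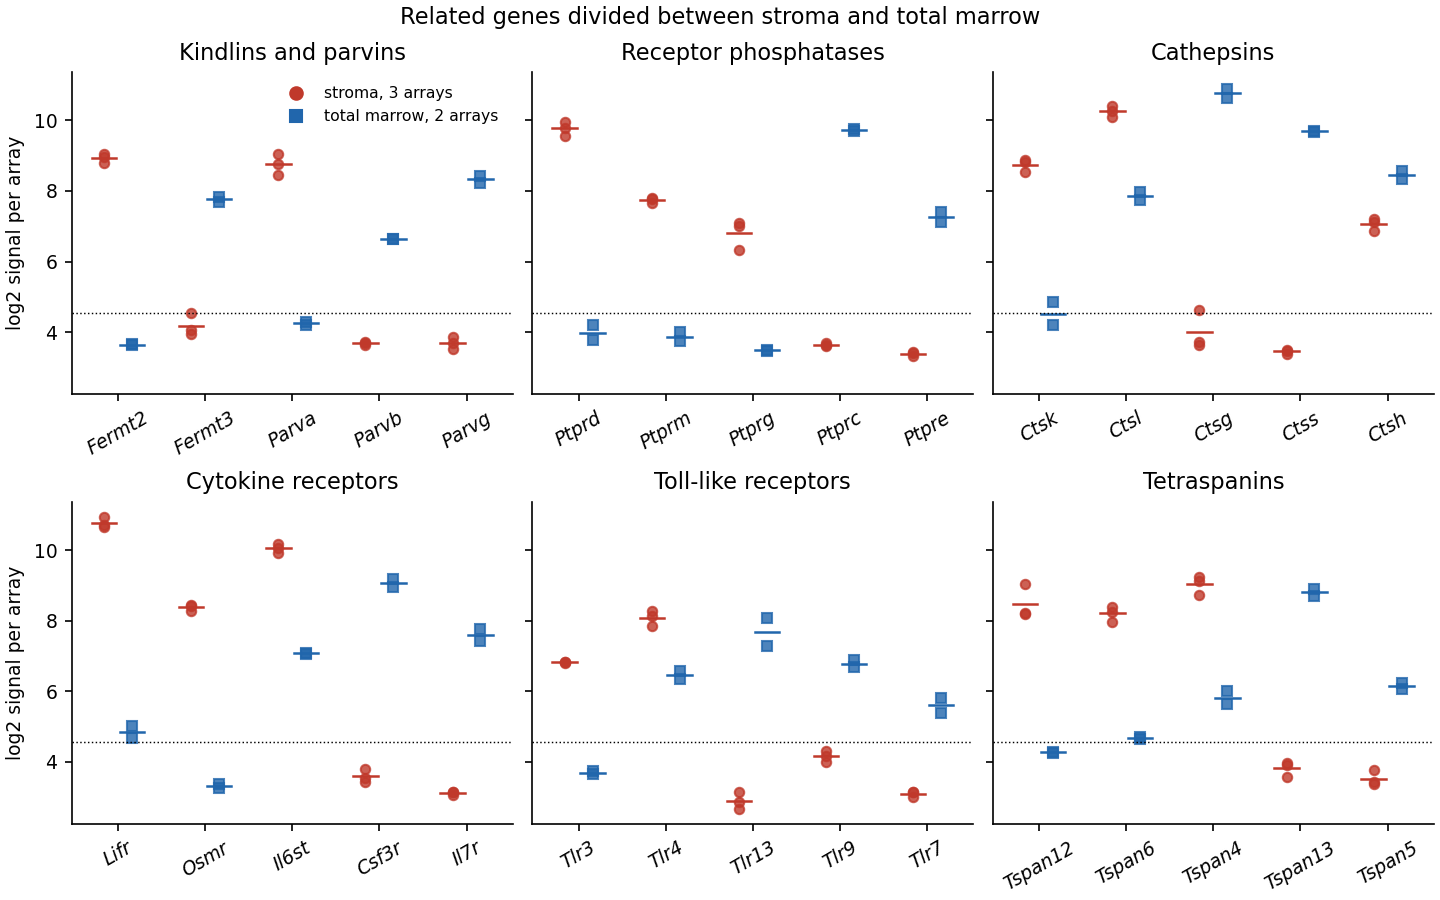
Log2 signal of related genes in each of the 3 stromal arrays (red circles) and 2 total marrow arrays (blue squares), with the mean of each group as a bar and the low level of 4.55 as a dotted line; signals are compared within a gene, not between genes. In every gene shown the groups do not overlap, and in each family some members are high in stroma, such as Fermt2, Ptprd, Ctsk, Lifr, Tlr3 and Tspan12, and others in total marrow, such as Fermt3, Ptprc, Ctss, Csf3r, Tlr13 and Tspan13. The genes were picked with their values known, to show both directions. The lack of overlap and the split within families follow from that choice.

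Cytokine receptors showed the same division. Of 26 measured, 14 were lower and 4 higher. Lifr, the receptor of leukaemia inhibitory factor, read 10.72, 10.64 and 10.95 in stroma against 4.67 and 5.02. Osmr, the oncostatin M receptor, read 8.45, 8.26 and 8.42 against 3.27 and 3.38. Both chains pair with Il6st, which rose by 2.97 ± 0.21; the changes of Lifr and Osmr were 5.92 ± 0.17 and 5.06 ± 0.42. The remaining higher member was the interferon receptor chain Ifnar2 (1.19 ± 0.14). Csf3r, the granulocyte colony-stimulating factor receptor, fell by 5.47 ± 0.16, and Il7r, the receptor for the Il7 that stroma expresses, read 3.13, 3.14 and 3.05 in stroma against 7.77 and 7.43 in total marrow. Fitting only the 5 arrays compared gave 8 members higher, and cyclic loess normalization 7. Chemokine receptors had 12 of 19 lower and 1 higher. The higher one was the scavenging receptor gene Ackr4 (4.24 ± 0.29), whereas Cxcr4, the receptor of Cxcl12, fell by 4.17 ± 0.29 and Cxcr2 by 6.40 ± 0.20.

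Innate sensors were lower in 14 of 25 members and higher in 2. Tlr3, a sensor of double-stranded RNA, read 6.82, 6.84 and 6.79 in stroma against 3.73 and 3.64. Tlr4, the sensor of bacterial lipopolysaccharide, read 8.13, 7.84 and 8.27 against 6.58 and 6.34. These were the only innate sensors of the list called higher, by 3.13 ± 0.34 and 1.62 ± 0.25 (adjusted p = 0.000315 and 0.002). Tlr13 and the lectin genes Clec4d and Clec4e fell by 4.78, 5.53 and 5.32, and the shared adaptor Myd88 was not called, at 0.03.

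The proliferation programme was lower in stroma nearly without exception. Kinetochore and spindle genes, which attach and part the chromosomes, were called lower in 30 of 30 measured members, with a median of −3.64. DNA replication genes were called lower in 30 of 32, with a median of −2.45. Kif11, the motor that separates spindle poles, read 3.38, 3.47 and 3.84 in stroma and 8.35 and 8.29 in total marrow. Cenpa, the histone of the centromere, read 4.82, 4.46 and 4.68 against 9.51 and 9.19. Mcm3, a subunit of the replicative helicase, read 4.10, 4.10 and 4.49 against 7.93 and 7.40. The groups lay far apart in all 3 genes, with falls of 4.76 ± 0.16, 4.70 ± 0.18 and 3.44 ± 0.24 (adjusted p = 4.65e-07, 9.31e-07 and 2.52e-05). The replication genes that were not called were Orc6 and Gins4, at −1.34 and −1.06. In 26 of the 30 kinetochore genes only the stromal mean was below the low level.

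Supporting genes fell with them. In nucleotide synthesis 14 of 22 genes were lower and 0 higher, led by the ribonucleotide reductase subunits Rrm2 (−4.75 ± 0.34) and Rrm1 (−3.33 ± 0.33) and by thymidylate synthase, Tyms (−2.12 ± 0.20). In DNA repair 16 of 26 were lower and 1 higher, with Chek1 and Blm at −2.67 ± 0.14 and −2.54 ± 0.11, and the higher one was Fancc, at 0.95, a call lost without stromal replicate 2 or 3 or either total marrow array. Of 43 histone genes, 22 were lower and 1 higher. H2ac4 read 3.59, 3.33 and 4.09 in stroma against 8.88 and 9.07, and the higher one was H2bc4, at 0.87 ± 0.23, a call lost whichever of the 5 arrays was left out. Many histone genes are near-identical copies, and probes may read several of them at once. Of 37 kinesins 14 were lower and 3 higher; the higher ones, Kif3a and Kif7 of the cilium and Kif13b, changed by 1.13, 0.66 and 0.97, and without total marrow replicate 1 the higher count was 0.

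Of 20 measured genes linked with growth arrest, 2 were higher and 4 lower, 14 values lay below 0 and the median was −0.59. The lower count was 9 when only the 5 arrays were fitted and 7 with dim rows filtered out. Cdkn1c, an imprinted inhibitor of the cell cycle, read 6.84, 6.65 and 7.11 in stroma against 5.34 and 5.06, a rise of 1.67 ± 0.21, and Txnip rose by 0.87 ± 0.18 (1 higher without either total marrow array). Cdkn2d, Rb1, Trp53inp1 and Btg1 fell by 2.47 ± 0.29, 2.30 ± 0.15, 1.70 and 1.42 ± 0.23, and Cdkn1b was not called, at −0.43. Imprinted growth genes, which in at least some tissues are expressed from the copy of 1 parent, had 10 of 19 higher and 0 lower, and fewer higher without total marrow replicate 1. The arrays do not tell the parental copies apart. Plagl1, a regulator of other imprinted genes, read 8.64, 8.89 and 8.73 in stroma against 4.29 and 4.28. Sgce, Dcn and Grb10 rose by 4.58 ± 0.16, 4.58 ± 0.18 and 2.77 ± 0.27, and Mest, Dlk1 and Meg3 were dim in both groups and not called.

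**Figure D4:**
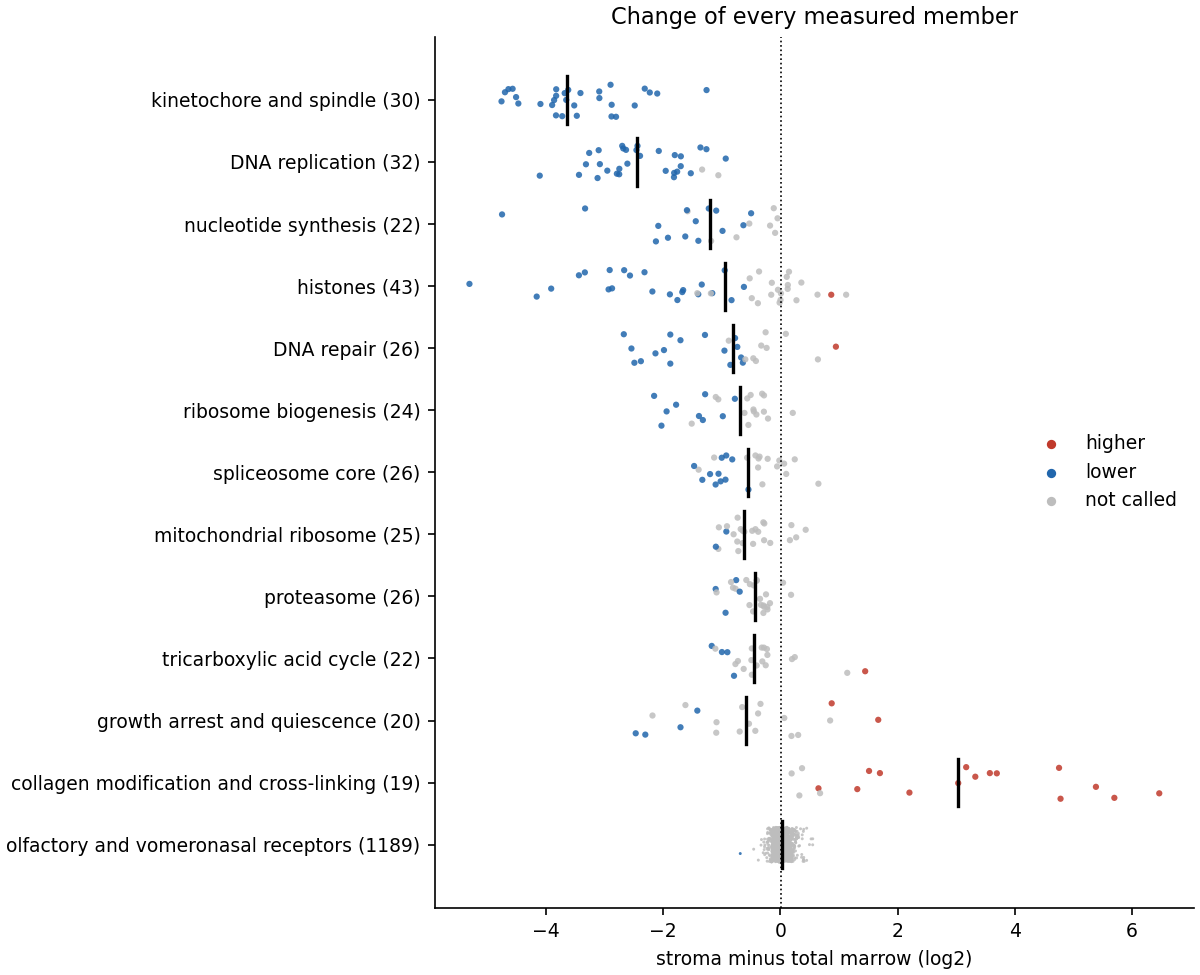
Change of every measured member (stroma minus total marrow, log2) in 13 lists and families, coloured by call, with the median of each as a black bar and the number of members in parentheses; the dotted line is the median of all genes, 0.0058. Kinetochore, replication and nucleotide genes lie left of the line, the machinery of RNA and protein lies left of it by less than 1 unit at the median, collagen-modifying genes lie to the right, and olfactory and vomeronasal receptors lie on it.

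Promoters of the genes that moved together were read for short motifs known from cell cycle and blood regulators. Sequences are from RefSeq (GRCm38.p6), 250 bases before to 50 after a start site, and 15563 of the tested genes had at least 1 such window, 19116 windows in all. The cell cycle homology region (CHR, TTTGAA) and the box bound by NF-Y (CCAAT), searched on both strands, are known in combination from genes switched on in late cell cycle. Both were present in 48.1% of 27 windows of kinetochore and spindle genes, against 5.85% of all windows, 2.55% of those of genes called higher by at least 2-fold and 7.91% of those called lower by at least 2-fold. Either form of the E2F site (TTTCCCGC or TTTGGCGC) was present in 34.5% of 29 windows of replication genes and in 0 of the kinetochore windows, against 2.2% of all. Alone, the CHR was present in 59.3% of the kinetochore windows against 14.8% of all, and the NF-Y box in 77.8% against 37.4%. In replication windows the shares were 13.8% for the CHR and 62.1% for the NF-Y box. The NF-Y box was thus frequent in both proliferation lists. It was also in 50% of red cell precursor windows and in 11.5% of those of immune receptor signalling. The GATA site (AGATAA), known from red cell genes, was present in 9.24% of all windows and in 50% of the 10 windows of the red cell precursor list. In windows of genes called lower by at least 2-fold its share was 8.46%. Sites of RUNX (TGTGGTT), EBF (CCCNNGGGA), TEAD (ACATTCCA) and SRF (CCATATTAG) were searched as well. Genes called higher by at least 2-fold held them in 3.79%, 8.64%, 1.24% and 0.124% of windows. The shares of all windows were 4.43%, 7.31%, 1.01% and 0.068%. The TEAD site was in 1 of 18 windows of the YAP and TEAD list. Windows of 1 gene can overlap, overlapping matches count for each motif, and a match describes letters, not binding. The windows of Kif11 and Cenpa are shown with CHR and NF-Y boxes in capitals, and those of Mcm3 and Mcm6 with E2F sites in capitals, as the members of each list with the largest falls among those that hold the motifs.
Kif11 promoter, GRCm38.p6 chr19:37376132-37376431, plus strand: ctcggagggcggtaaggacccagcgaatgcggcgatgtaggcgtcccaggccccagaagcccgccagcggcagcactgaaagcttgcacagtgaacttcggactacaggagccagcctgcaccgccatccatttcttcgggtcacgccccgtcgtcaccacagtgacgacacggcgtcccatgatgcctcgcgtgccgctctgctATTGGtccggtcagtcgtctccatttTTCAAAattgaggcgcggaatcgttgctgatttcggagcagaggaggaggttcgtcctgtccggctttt
Cenpa promoter, GRCm38.p6 chr5:30666636-30666935, plus strand: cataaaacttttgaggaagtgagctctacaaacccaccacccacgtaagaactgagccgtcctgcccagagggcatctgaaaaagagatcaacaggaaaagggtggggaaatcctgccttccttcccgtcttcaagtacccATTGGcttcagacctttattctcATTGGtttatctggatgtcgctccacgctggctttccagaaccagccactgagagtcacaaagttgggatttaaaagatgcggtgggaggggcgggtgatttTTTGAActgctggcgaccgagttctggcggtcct
Mcm3 promoter, GRCm38.p6 chr1:20820263-20820562, minus strand: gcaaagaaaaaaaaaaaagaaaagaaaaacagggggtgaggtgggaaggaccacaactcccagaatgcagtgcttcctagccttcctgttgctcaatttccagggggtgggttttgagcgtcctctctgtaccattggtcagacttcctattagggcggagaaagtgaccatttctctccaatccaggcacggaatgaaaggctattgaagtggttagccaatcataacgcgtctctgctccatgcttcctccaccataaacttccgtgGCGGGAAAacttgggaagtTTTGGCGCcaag
Mcm6 promoter, GRCm38.p6 chr1:128359656-128359955, minus strand: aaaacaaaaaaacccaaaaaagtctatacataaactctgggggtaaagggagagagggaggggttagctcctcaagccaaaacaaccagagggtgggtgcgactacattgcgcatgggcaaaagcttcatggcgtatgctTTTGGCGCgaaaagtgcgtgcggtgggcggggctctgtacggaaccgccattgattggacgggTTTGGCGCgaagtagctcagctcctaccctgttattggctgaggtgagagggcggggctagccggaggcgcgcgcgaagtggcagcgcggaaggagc
In Kif11 and Cenpa the CHR lies nearer the start site than the NF-Y boxes, of which Cenpa holds 2. Mcm3 holds 1 site of each E2F form, and Mcm6, another helicase subunit, which fell by 3.32, holds 2 of the form TTTGGCGC.

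**Figure D5:**
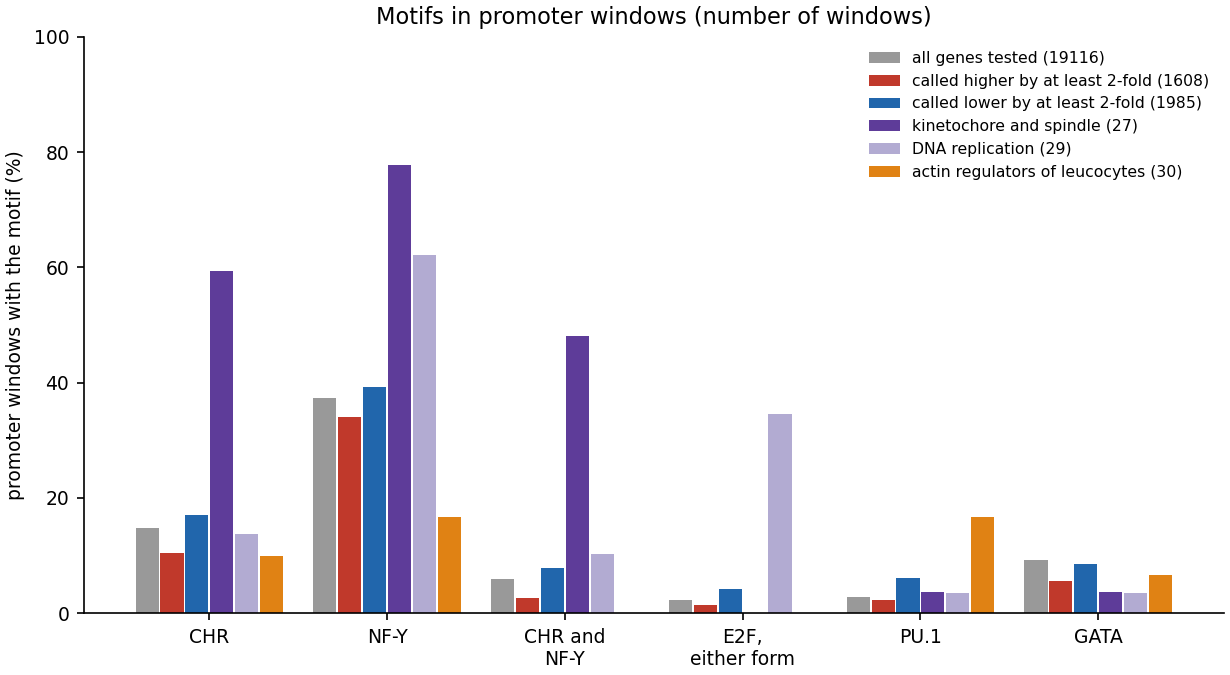
Share of promoter windows (percent) that hold each motif on either strand, for all genes tested, genes called higher or lower by at least 2-fold, and 3 gene lists, with the number of windows in parentheses. The RUNX, EBF, TEAD and SRF sites, also searched, are not drawn. CHR with an NF-Y box stands out in kinetochore and spindle genes (48.1% against 5.85% of all windows), the E2F site in replication genes (34.5% against 2.2%), and the PU.1 site in actin regulators of leucocytes (16.7% against 2.78%).

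Machinery common to all cells was called mostly on the lower side, with counts that changed between settings. Fits without a total marrow array leave 1 control and gave fewer calls over all rows too. A smaller count in those fits is therefore not particular to these lists. Ribosome biogenesis had 9 of 24 genes lower and 0 higher, with a median of −0.69. Fibrillarin (Fbl), which modifies ribosomal RNA, read lower by 2.15 ± 0.32 and Nhp2 by 2.03 ± 0.31, and Ncl and Npm1 fell by 1.32 and 1.39. The core spliceosome had 11 of 26 lower and 0 higher, with a median of −0.56, led by Snrpd1 (−1.47 ± 0.18). Without total marrow replicate 1 the lower count was 3 in each of these lists, and without replicate 2 it was 4; without stromal replicates 1 and 3 the spliceosome had 5 and 6 lower, and after quantile and cyclic loess normalization 5 and 7. The proteasome had 4 of 26 lower, with a median of −0.43 and Psma1 at −1.10 ± 0.23; this count was 0 without total marrow replicate 1, 2 without total marrow replicate 2 or stromal replicate 1, 1 without stromal replicate 3, and 9 when only the 5 arrays were fitted. The mitochondrial ribosome had 2 of 25 lower, 21 of 25 values lay below 0 and the median was −0.62; leaving out single arrays gave 1 to 4 lower, and fitting the 5 arrays alone or filtering dim rows gave 6. Of the immunoproteasome and peptide-loading genes, Psmb9 and Psme1 fell by 0.77 and 0.85, and B2m, Tap2 and Tapbp rose by 0.44, 0.71 and 0.87. Without total marrow replicate 2 the higher count of this list was 0, without stromal replicate 1 or total marrow replicate 1 it was 1, and its lower count was 0 without stromal replicate 3 or total marrow replicate 1.

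Metabolic lists differed in single enzymes. In the tricarboxylic acid cycle 4 of 22 genes were lower, among them citrate synthase, Cs (−1.17 ± 0.29), and 1 was higher, Aco1, which also binds iron-responsive RNA elements (1.45 ± 0.25). The lower count was 0 without total marrow replicate 1, 1 without total marrow replicate 2 or stromal replicate 1, and 7 with the 5 arrays alone. Cholesterol synthesis had 4 of 20 lower (2 with either total marrow array, or stromal replicate 1 or 2, left out) and 0 higher, with Idi1 and Fdps at −1.82 ± 0.24 and −1.15 ± 0.21. In fatty acid synthesis and storage 6 of 22 were lower (2 without total marrow replicate 1) and 2 higher (1 without total marrow replicate 1, 4 with the 5 arrays alone). Dgat2 and Scd1, which make triglyceride and monounsaturated fat, fell by 2.37 ± 0.23 and 2.14 ± 0.56, and the desaturases Fads3 and Fads1 rose by 2.68 ± 0.35 and 1.61. In fatty acid uptake and oxidation 6 of 20 were lower and 2 higher (1 without stromal replicate 2 or 3 or total marrow replicate 2, 3 without total marrow replicate 1). Lpl, which frees fatty acids from lipoproteins, read 11.58, 11.65 and 11.78 in stroma against 6.85 and 6.34, while the carriers Fabp5 and Cd36 fell by 2.39 ± 0.26 and 1.61.

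Haem and lipid mediator synthesis were lower. Haem and iron genes had 12 of 21 lower and 1 higher (7 lower without total marrow replicate 2). Tfrc, the transferrin receptor, read 2.93, 2.89 and 3.50 in stroma and 7.80 and 7.85 in total marrow. Alad and Alas1 of haem synthesis fell by 2.42 ± 0.34 and 1.84 ± 0.23, the iron sensor Hfe rose by 1.39 ± 0.38 (a call lost with stromal replicate 2 or 3 or either total marrow array left out), and the ferritin gene Fth1 was not called, at 0.29. In prostaglandin and leukotriene synthesis 8 of 17 were lower (5 with dim rows filtered out) and 1 higher. Alox5ap, the partner of 5-lipoxygenase, read 3.95, 3.94 and 3.51 in stroma against 10.82 and 10.82. Ptgs2, the inducible cyclooxygenase, fell by 5.21 ± 0.13, and Ptgis, the prostacyclin synthase, rose by 0.90 ± 0.16.

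Leucocyte machinery was far lower in stroma. Actin regulators of leucocytes were lower in 19 of 21 members, with a median of −3.81. Lcp1, the leucocyte plastin, read 3.27, 3.44 and 3.62 in stroma against 10.42 and 10.47, and Rac2, a leucocyte GTPase, read 4.45, 4.64 and 4.93 against 11.27 and 11.07. Vav2 and Evl, relatives with a wider expression, were not called, both at 0.12, while Vav1 fell by 3.998 ± 0.19. Signalling from immune receptors was lower in 21 of 22, with Tyrobp, Blnk and Btk at −6.56 ± 0.41, −4.80 ± 0.14 and −4.22 ± 0.12, and Tec was not called, at −0.42. Fc and complement receptors were lower in 12 of 15, with Itgam and Fcgr3 at −6.35 ± 0.15 and −5.67 ± 0.23. The phagocyte oxidase was lower in 5 of 8, and Cybb, its catalytic subunit, kept a stromal mean of 6.72, above the low level, with a fall of 3.996 ± 0.63. The PU.1 site (GAGGAAGT, both strands) was present in 16.7% of 30 promoter windows of the actin regulators and in 6.05% of windows of all genes called lower by at least 2-fold, against 2.78% of all windows. The EBF and RUNX sites were present in 16.7% and 10% of the same 30 windows, against 7.31% and 4.43% of all windows. Whether any of these sites bears on the falls was not tested. The PU.1 site is shown in capitals for the members with the largest falls that hold it.
Arhgap25 promoter, GRCm38.p6 chr6:87496278-87496577, minus strand: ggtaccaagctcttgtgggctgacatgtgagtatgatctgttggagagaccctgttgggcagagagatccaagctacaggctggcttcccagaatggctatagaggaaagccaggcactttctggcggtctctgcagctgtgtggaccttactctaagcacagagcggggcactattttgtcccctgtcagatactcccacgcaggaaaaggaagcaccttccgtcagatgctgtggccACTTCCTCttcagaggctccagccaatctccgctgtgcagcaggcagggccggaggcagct
Vav1 promoter, GRCm38.p6 chr17:57278850-57279149, plus strand: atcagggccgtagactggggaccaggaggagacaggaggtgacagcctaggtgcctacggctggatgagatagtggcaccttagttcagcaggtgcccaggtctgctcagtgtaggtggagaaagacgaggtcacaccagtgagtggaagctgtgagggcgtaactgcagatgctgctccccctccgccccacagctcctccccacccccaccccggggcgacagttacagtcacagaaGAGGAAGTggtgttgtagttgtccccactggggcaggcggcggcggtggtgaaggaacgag
Arhgap25 restrains Rac in phagocytes and Vav1 activates it in lymphocytes, and the site lies in the stretch nearest the start in both windows.

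MicroRNA genes gave few calls. Of 296 measured, 3 were higher (1 without total marrow replicate 1, 6 with the 5 arrays alone), 3 lower (5 without stromal replicate 1, after cyclic loess or with the 5 arrays alone) and 242 dim in both groups, and the arrays read precursor transcripts, not mature microRNAs. Mir142, a microRNA of blood cells, read 3.02, 2.80 and 2.70 in stroma and 6.07 and 6.89 in total marrow. Stroma was dim in every array and the groups did not overlap, with a fall of 3.64 ± 0.24 (adjusted p = 1.52e-05). Mir143, known from mesenchymal and muscle cells, read 4.74, 5.20 and 5.71 in stroma against 3.002 and 3.38, a rise of 2.02 ± 0.52 (adjusted p = 0.0256). Mir6516 fell by 2.66 ± 0.25 and Mir210 rose by 0.63 ± 0.17, and Mir20a and Mir202 were called with both groups dim, at −0.94 and 1.09. The mature products of Mir142 are shown, from RefSeq (GRCm38.p6), since that gene had the largest change of the family; capitals mark the seed, bases 2 to 8, which pairs with targets.
miR-142a-5p, chr11:87756867-87756887, plus strand: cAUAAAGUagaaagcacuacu
miR-142a-3p, chr11:87756903-87756925, plus strand: uGUAGUGUuuccuacuuuaugga

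Other families differed in how their members split. Zinc finger genes named Zfp had 52 of 345 higher and 14 lower, with a median of 0.23; without total marrow replicate 1 or 2 the higher count was 25 or 21, and without stromal replicate 1 it was 34. Fitting the 5 arrays alone gave 84. The lower count was 7 without total marrow replicate 1 and 9 without stromal replicate 2. Zfp521, a partner of EBF factors in marrow, read 5.65, 6.28 and 7.18 in stroma against 3.37 and 3.47. Protocadherins, adhesion proteins of the cadherin family, had 16 of 34 higher and 0 lower (10 without total marrow replicate 1). Pcdh18 and Pcdh19 rose by 5.39 ± 0.21 and 3.19, and the other 14 belonged to the clustered Pcdhb genes, led by Pcdhb9 (3.32 ± 0.22), whose close relatives may share probes. Of the 34 protocadherins, 22 were dim in both groups and 12 in total marrow only. With dim rows filtered out, 11 were called higher. ADAM and ADAMTS proteases had 13 of 57 higher and 1 lower; Adamts5 and Adamts1, which cut proteoglycans, rose by 5.44 ± 0.35 and 4.60 ± 0.44, and Adam8 of myeloid cells fell by 3.69 ± 0.15. Solute carriers had 54 of 350 higher and 39 lower (34 higher without either total marrow array, 25 lower without replicate 1). The anion exchanger gene Slc26a7 and the inositol carrier gene Slc5a3 rose by 5.27 ± 0.52 and 4.84 ± 0.35. Slc14a1, the urea carrier of red cells, and Slc38a1, a glutamine carrier, fell by 4.29 ± 0.19 and 4.20 ± 0.16.

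Among surface antigens named Cd, 51 of 94 were lower and 8 higher. The higher ones included Cd200, an inhibitory ligand (3.53 ± 0.23), Cd302, a lectin (3.56 ± 0.25), and the tetraspanin Cd151 (3.50 ± 0.37). Of 95 orphan and adhesion G protein-coupled receptors, 11 were higher and 19 lower, with Adgrf5 reading 8.76, 8.87 and 9.04 in stroma against 3.05 and 3.11. Of 82 cytochrome P450 genes, 70 were dim in both groups and 5 were higher (3 without total marrow replicate 2), led by Cyp1b1 (7.64 ± 0.17). Of 59 Rab GTPases, 8 were higher and 11 lower, and Rab27a, which docks secretory granules, fell by 4.05 ± 0.13. Their higher count was 5, and their lower count 5 or 6, with either total marrow array left out; without stromal replicate 2 the higher count was 5, without stromal replicate 1 the lower count was 7, and the 5 arrays alone gave 17 lower.

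Markers of other cells were read as a check of what else the gate held. Of 19 endothelial markers, 15 were dim in both groups; Cdh5 and Kdr, which define the lineage, had stromal means of 3.56 and 3.21, Pecam1 fell by 2.15 ± 0.18, and Eng, which stromal cells also carry, rose by 1.51 ± 0.25. Macrophage markers were lower in 12 of 15, with Adgre1 and C1qa at stromal means of 3.18 and 3.63, and the higher one was Vcam1, shared with stroma (3.28 ± 0.23). Red cell precursor markers were lower in 14 of 14. Of 10 osteoclast markers 5 were dim in both groups, Acp5 and Mmp9 fell by 3.34 ± 0.21 and 4.53, and Ctsk was the one that rose. Of 17 skeletal muscle markers, 13 were dim in both groups and 0 rose. Sox10, which defines Schwann cells, was dim in both groups, at 0.08, while S100b and Pmp22 of the nerve list rose by 5.42 ± 0.18 and 5.22 ± 0.40.

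Some markers of bone, cartilage and vessel walls were higher. Of 11 markers of mature osteoblasts and osteocytes, 7 were higher and 0 lower. Ibsp, bone sialoprotein, read 11.67, 11.94 and 11.72 in stroma against 4.16 and 4.64. Phex and Alpl rose by 4.27 ± 0.16 and 4.65 ± 0.67. The osteocyte gene Dmp1 rose by 0.73 ± 0.17 with both groups dim, and Sost and Mepe were not called, at 0.24 and −0.05. Cartilage markers had 3 of 15 higher, Comp (2.91 ± 0.32), Sox9 and Col11a1 (0.80), while Acan, the defining proteoglycan of cartilage, was dim in both groups, at a stromal mean of 3.42. Of 14 smooth muscle and pericyte markers, 5 were higher, led by Myl9 (4.81 ± 0.44), Abcc9 (2.98) and Notch3 (2.86 ± 0.18), while Acta2 and Myh11 were not called, at −0.58 and 0.11. The part of these cells in the results was not tested. The Y-linked genes Uty, Kdm5d and Eif2s3y were dim in both groups, with group means of 2.56 to 3.12, and Xist read 9.14, 9.37 and 9.45 in stroma and 7.93 and 8.71 in total marrow. None of these sex-linked genes was called, Xist included. The 5 arrays alone gave 1 call, on the higher side.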

How the data were processed

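The arrays were summarised and normalized by the authors with RMA in Affymetrix Expression Console 1.3.1, per the submitters' processing notes, and the values used are the log2 signals the authors deposited. Of 35556 probe set rows, 21789 name 1 gene in the platform annotation and were tested; 1621 name several genes and 12146 none. Where several rows name a gene, the brightest on average in the 5 arrays stands for it. Limma 3.58.1 in R 4.3.3 was fitted to all 9 arrays with 1 mean per group, the contrast was wild-type CD54+BP1+ minus total marrow, tests were two-sided, and p-values were adjusted over all rows tested by the Benjamini-Hochberg method. The threshold for a call was 0.05. The standard error, given as ±, comes from that fit, with 5 residual degrees of freedom. It is moderated, with a prior over all rows worth 2.5 degrees of freedom. The scatter of the YFP-positive arrays enters it, so it is not the error of the arrays compared alone. For Plod2 the SDs were 0.08 in stroma, 0.07 in total marrow and 1.11 in YFP-positive arrays. The n given beside it counts the arrays compared.

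The members and the gene lists were chosen with earlier results of these data known. After values were seen, the patterns that pick the Rab, Ptpr and microRNA families were tightened and the microRNA family was added. Named genes are the gate and marker genes, the largest called changes whose groups do not overlap in each list, in each family and over all genes, and, where a list had no call, its smallest p-values. For genes named by largest change, the call, the lack of overlap and the size follow from this rule. Genes of a list given as not called, and some further members, were chosen after their values were seen. RefSeq promoter windows, 300 bases long, and mature microRNAs were matched by gene identifier.

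Alternatives were other normalizations, the 5 or 8 arrays alone, a filter on dim rows, all rows, other variance models, array weights, a replicate block and leaving out each array. Same-numbered arrays of both groups did not deviate together (correlations of -0.080 and -0.084), so the numbers were not taken as pairs. The microarrays give no counts, and the number of arrays limits the precision.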

Additional observations from a re-analysis of the deposited data

Results flagged for a closer look

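Signal was also present in rows that no comparison above uses. When all rows were fitted together, 25.8% of the 1621 rows that name several genes and 6% of the 12146 rows that name none were called, against 21.3% of the rows with 1 gene. Of the rows with several genes, 346 were called lower in stroma and 72 higher. Of the rows with no gene, 472 were called lower and 257 higher. These rows carry no single name and were not described further.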

How the results depend on the processing

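The number of rows called depended most on the total marrow arrays, of which there are 2. With single arrays left out, rows called ranged from 3398 (without total marrow replicate 1) to 5980 (without YFP-positive replicate 3). The rows called higher ranged from 1440 (without total marrow replicate 2) to 2544, and the rows called lower from 1918 (without total marrow replicate 1) to 3436. Leaving out a total marrow array leaves 1 control, which the fit assumes to vary like the other groups. Under every other alternative these counts stayed within 1.5 times those reported, from 4699 rows called with the replicate block to 7022 with array weights. The replicate block, tried although the numbers were not taken as pairs, gave 2093 rows called higher and 2606 lower. Lower calls made up 57.1% of all calls, and 54 to 60.6% over the alternatives. Of 434 named genes called, 0 changed direction under any alternative and 79 lost their call under at least 1, among them 68 without total marrow replicate 1 and 62 without replicate 2. A list median within 0.1 of 0 was taken as having no direction, and 10 such medians took the other sign under some alternative. Beyond 0.1, 1 did, that of the lysosomal hydrolases: median change with single arrays left out ranged from -0.0065 (without total marrow replicate 2) to 0.1488 (without replicate 1). The cause was not tested. The median change was 0.0001 over all 21789 rows and -0.0991 over the 12153 rows that the dim filter keeps. The filter alters which rows are counted, not the change of a kept row.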
